A study of Rattus norvegicus with 6 samples.

Results

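The protein subunits of the mitochondrial respiratory chain and ATP synthase were followed in cells labelled PC12, a line derived from a rat adrenal pheochromocytoma. Members were the protein-coding gene models on the mitochondrial chromosome and the nuclear protein-coding models whose symbols carry the stems of the subunit families (Nduf, Sdh, Uqcr, Cox4 to Cox8, Atp5). The rule took 97 of the 33350 gene models: 13 encoded by mitochondrial DNA (MT) and 84 encoded in the nucleus, which carry 81 symbols. It used names, biotype and chromosome and no measured value. By name it also took a few models that are not chain subunits, such as Atp5s, Atp5sl and the model Ndufv3-ps1, and it left out true subunits with other symbols, such as Cyc1 and Usmg5, which are given further on.

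The series holds 6 RNA-seq libraries in 2 groups of 3. EC cells received exosomes, the small vesicles that cells release, from control endothelial cells. EN cells received exosomes from endothelial cells made to express NTN1 at a high level, which the submitters describe as loaded with that protein; NTN1 is netrin-1, a secreted guidance protein. All libraries came from exosome-treated cells of 1 line, so the comparison was between 2 kinds of exosome. Dose, exposure time and the kind of endothelial cell are not stated in the labels.

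Each library held 15296193 to 19626012 reads, and every EN library was deeper than every EC library. Nothing in the labels tells whether the replicates were separate cultures, so each p reflects the spread among these libraries alone, which may be technical. Of 16 chromaffin markers, only Th, Slc18a2 and Scg2 averaged at least 1 FPKM (reads scaled to gene length and library size). In all libraries 3 were at 0, Pnmt and Hand2 among them. The chromaffin summed level was 67.9 to 72.8 FPKM in EC and 68.8 to 74.4 in EN. Most of it came from 1 marker that averaged 63.9 FPKM, and the median over the 16 was 0.164. Among 12 Schwann and glial markers, 10 were tested, 6 were lower and 1 was higher in EN. That is 60% lower and 10% higher, beside 7.14% and 7.24% of all genes tested. The summed level of these 12 markers was 478 to 487 FPKM in EC against 420 to 453 in EN. The data therefore go against the chromaffin label at the level of its defining markers, and the part of this difference, and of the depth difference, in the results given here was not tested. Endothelial markers stayed at a summed 3.33 to 4.10 FPKM in EC and 3.41 to 3.83 in EN. Fibroblast markers summed to 74.2 to 77.5 FPKM in EC and 72.4 to 75.6 in EN, with 1 marker averaging 64.8.

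The chain moves electrons from NADH and succinate through complexes I to IV to oxygen and pumps protons across the inner mitochondrial membrane, and complex V, the ATP synthase, uses the proton gradient to make ATP. Mitochondrial DNA encodes only core, membrane-embedded subunits, and these are cut from long precursor transcripts that span many genes. All other subunits, including the whole of complex II, are encoded in the nucleus and imported, so complexes I, III, IV and V need the products of both genomes.

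The MT-encoded transcripts were lower on average in EN than in EC, although the groups overlapped. Their FPKM summed to 57017, 65448 and 64630.3 in EC replicates 1, 2 and 3, and to 44959.8, 48486 and 57997 in EN replicates 1, 2 and 3. EN replicate 3 lay above EC replicate 1, and EN replicates 1 and 2 lay below every EC library. The group means were 62365 ± 4649.9 and 50481 ± 6744 (SD, n = 3 each), so EC was 1.24 times EN. MT protein transcripts took 11.4%, 12.8% and 12.9% of all FPKM in EC and 9.11%, 9.78% and 11.5% in EN, or 5.37%, 6.03% and 6.02% of reads in EC and 4.36%, 4.66% and 5.44% in EN. This is a score over the members and was given no test.

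The nuclear subunit transcripts differed by less in sum. They added up to 8198, 8039 and 7759.9 FPKM in the EC libraries and to 8791, 8475 and 7931 in the EN libraries, with EN at 1.05 times EC and EN replicate 3 below EC replicates 1 and 2. The MT sum divided by the nuclear sum was 6.96, 8.14 and 8.33 in EC and 5.11, 5.72 and 7.31 in EN. In EN replicate 3 the ratio was above that of EC replicate 1, so the groups overlapped in this ratio too. In bulk RNA, fewer cells of a type and less RNA per cell cannot be told apart.

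**Figure D1:**
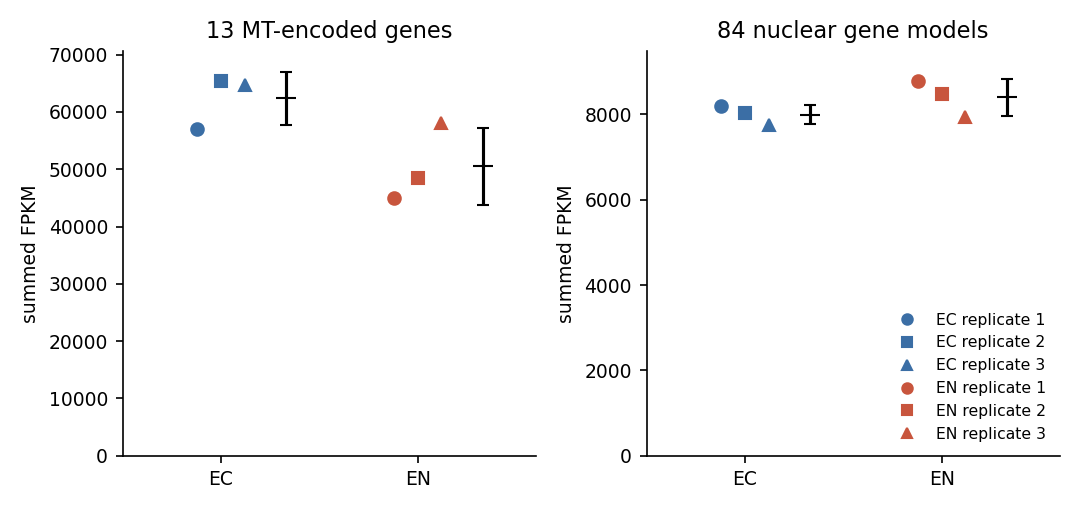
Summed FPKM per library (points), with group means ± SD (bars, n = 3 each), of the 13 MT-encoded genes (left) and the 84 nuclear models (right), both axes starting at 0. EN replicates 1 and 2 lie below all EC libraries for the MT sum, and the nuclear sums differ little.

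Gene by gene, 2 of the 13 MT-encoded transcripts fell in EN, none rose and 11 did not pass. The test was limma on log2(FPKM + 1), a scale that understates changes of low genes, with Benjamini-Hochberg adjustment over 12198 genes and a threshold of 0.05. Over all genes tested, 14.4% were called: 7.24% higher and 7.14% lower in EN. All 13 log2 changes were negative, from -0.46 to -0.19 with a median of -0.31, against -0.0028 over all genes. Under quantile normalization 9 were negative, 3 were 0 (Mt-nd2, Mt-co2 and Mt-cox3) and Mt-co1 was positive at 0.06. That scaling gives genes of the same rank the same value in every library. A gene with the same set of ranks in both groups thus gets 0 whatever its level, even where its rank moves between libraries. Mt-cox3 averaged the highest of all genes, but was below Mt-atp6 in EC replicate 2 and below Mt-co1 in EN replicate 2. The 13 MT genes share precursor transcripts and libraries, so they are not 13 independent observations.

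The 2 that fell both encode membrane subunits of complex I. Mt-nd1 (MT, bases 2740 to 3694 of Rnor_6.0), part of the channel where ubiquinone is reduced, was at 5433, 6544 and 6282 FPKM in EC and 4002, 4297 and 5029 in EN. Mt-nd2 (MT, 3904 to 4942), a proton-pumping subunit, was at 5490.2, 6438 and 6215 FPKM in EC and 4153, 4595 and 5201 in EN. For both genes every EN library was below every EC library. The log2 change was -0.46 (SE 0.103, limma adjusted p = 0.0320) for Mt-nd1 and -0.38 (SE 0.0964, limma adjusted p = 0.0437) for Mt-nd2. Mt-nd2 lay above Mt-nd1 in EC replicate 1 and below it in EC replicates 2 and 3. Under quantile normalization Mt-nd2 had a log2 change of 0, which does not require an unchanged rank in every library. There Mt-nd1 had one of -0.40 that did not pass (limma adjusted p = 0.0586), and Mt-nd6 was the gene called.

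Mt-atp6, the ATP synthase subunit that forms the proton path with the c-ring, also had no overlap between groups. It was at 8900.4, 10185 and 9955 FPKM in EC and 7073, 7572 and 8685 in EN, and its value of -0.32 on the log2 scale (SE 0.0902, limma adjusted p = 0.0578) did not pass. Separation without overlap, with EN below, was seen for 3 of 13 MT genes (Mt-nd1, Mt-nd2 and Mt-atp6) and for 19.4% of all genes tested. In the other MT genes the groups overlapped.

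The 3 MT-encoded core subunits of cytochrome c oxidase, complex IV, did not pass. Mt-co1, which holds the oxygen-reducing centre, was at 8566, 9191 and 9098 FPKM in EC and 7041, 7646 and 8884 in EN (log2 change -0.19, SE 0.0883). Mt-co2, which accepts electrons from cytochrome c, was at 5791, 7136 and 7291 in EC and 4677, 4876 and 6041 in EN (log2 change -0.38, SE 0.124, limma adjusted p = 0.0859). Mt-cox3 was at 9277, 10185 and 10439 in EC and 7252, 7588 and 9476 in EN (log2 change -0.31, SE 0.107, limma adjusted p = 0.0978). In all 3, EN replicate 3 was the highest EN library and lay above EC replicate 1.

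Mt-cytb, the cytochrome b of complex III, behaved alike, at 5034, 5702 and 5523 FPKM in EC and 4014, 4472 and 5353 in EN (log2 change -0.24, SE 0.107, limma adjusted p = 0.173). The proton-pumping complex I subunit Mt-nd5 was at 2119.9, 2419.6 and 2387 FPKM in EC and 1669.8, 1835 and 2312 in EN (log2 change -0.26). Mt-nd6, the one protein gene on the other mitochondrial strand, was at 1299.6, 1557 and 1419 in EC and 1088, 1143 and 1356 in EN (log2 change -0.26, SE 0.0977, limma adjusted p = 0.122). The membrane subunit Mt-nd3 had a log2 change of -0.27. Replicate 3 was the highest EN library for every MT-encoded gene but Mt-atp8, and replicate 1 was the lowest EC library for every one but Mt-atp8.

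**Figure D2:**
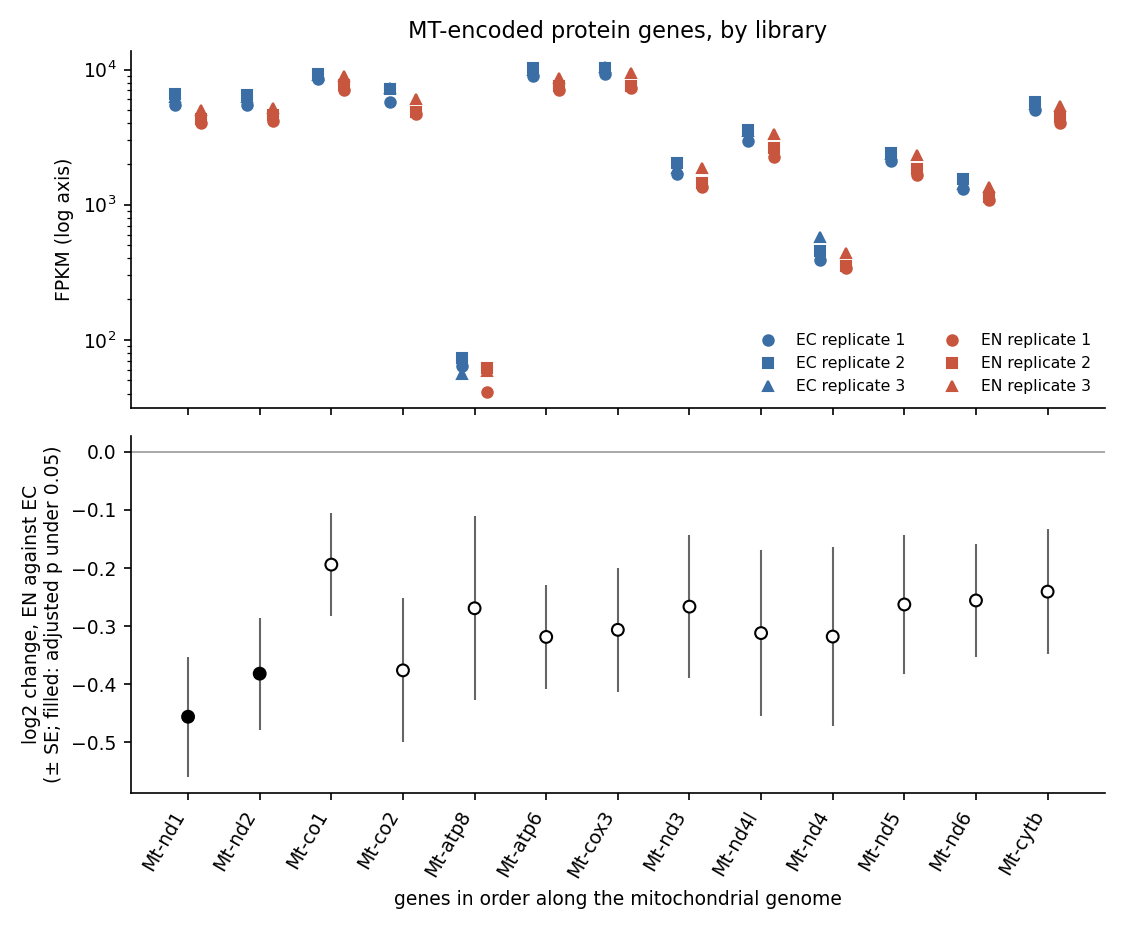
Top, FPKM (log axis) of the 13 MT-encoded genes in each library, in order along the mitochondrial genome. Bottom, log2 change of EN against EC ± SE. Filled points (Mt-nd1 and Mt-nd2) passed an adjusted p of 0.05. All 13 points lie below 0, as 9 did under quantile normalization, which sets a gene to 0 where both groups hold the same set of ranks.

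Levels differed widely between MT genes that overlap each other, and these levels were uncertain. Mt-nd4l averaged 3034 FPKM and Mt-nd4, which overlaps it by 7 bases, 425. Mt-atp8 averaged 58.9 FPKM and Mt-atp6, which overlaps it by 43 bases, 8729. The labels do not tell how reads in shared bases were assigned.

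For Mt-nd4, another proton-pumping subunit, a nuclear model described as the same protein also held reads. An unnamed gene model (chromosome 20, 19481408 to 19485845 of Rnor_6.0), which the table describes as NADH-ubiquinone oxidoreductase chain 4, was at 583, 664 and 449.7 FPKM in EC and 424, 432 and 622 in EN. Mt-nd4 itself was at 389, 457 and 573 FPKM in EC and 341, 349 and 441 in EN. Where Mt-nd4 was highest in EC, in replicate 3, the nuclear model was at its lowest for EC. The reads of both together came to 1441, 1639 and 1484 RPM (reads scaled to library size) in EC and 1154, 1169 and 1566 in EN, so in their sum EN replicate 3 lay above EC replicates 1 and 3.

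Of the 84 nuclear models, 75 averaged at least 1 FPKM and were tested. In EN, 6 rose, 2 fell and 67 did not pass. These were 8.0% higher and 2.67% lower among the tested models, against 7.24% and 7.14% of all genes. The share that rose was thus near the background. The median log2 change was 0.06, with 53 positive and 22 negative values, and 39 of the 75 were within 0.1 of 0. These models are short, with a median length of 726 bases against 2169 over all genes tested. With the length trend of each library removed, 45 were positive and the median was 0.04. In that fit the medians of complexes I and V were 0.03 and 0.04, against 0.07 each in the main fit. Every EN library was above every EC library for 11 models and below for 9, while 18.6% and 19.4% of all genes did so.

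The calls were then counted by complex. In complex I, 5 of 34 tested models rose and none fell (median log2 change 0.07). None of 4 rose and 1 fell in complex II (median 0.00), and 1 of 7 rose and none fell in complex III (median 0.11). In complex IV, none of 12 rose and 1 fell (median -0.01), and in complex V none of 18 was called (median 0.07). The shares that rose were 14.7% in complex I and 14.3% in complex III, beside 7.24% of all genes. The shares that fell were 25% in complex II and 8.33% in complex IV, beside 7.14% of all genes. In complexes II, III and IV each share is a single call. No difference between complexes was tested, and the medians of complexes II and IV, both near 0, changed sign under some scalings and with single libraries left out.

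**Figure D3:**
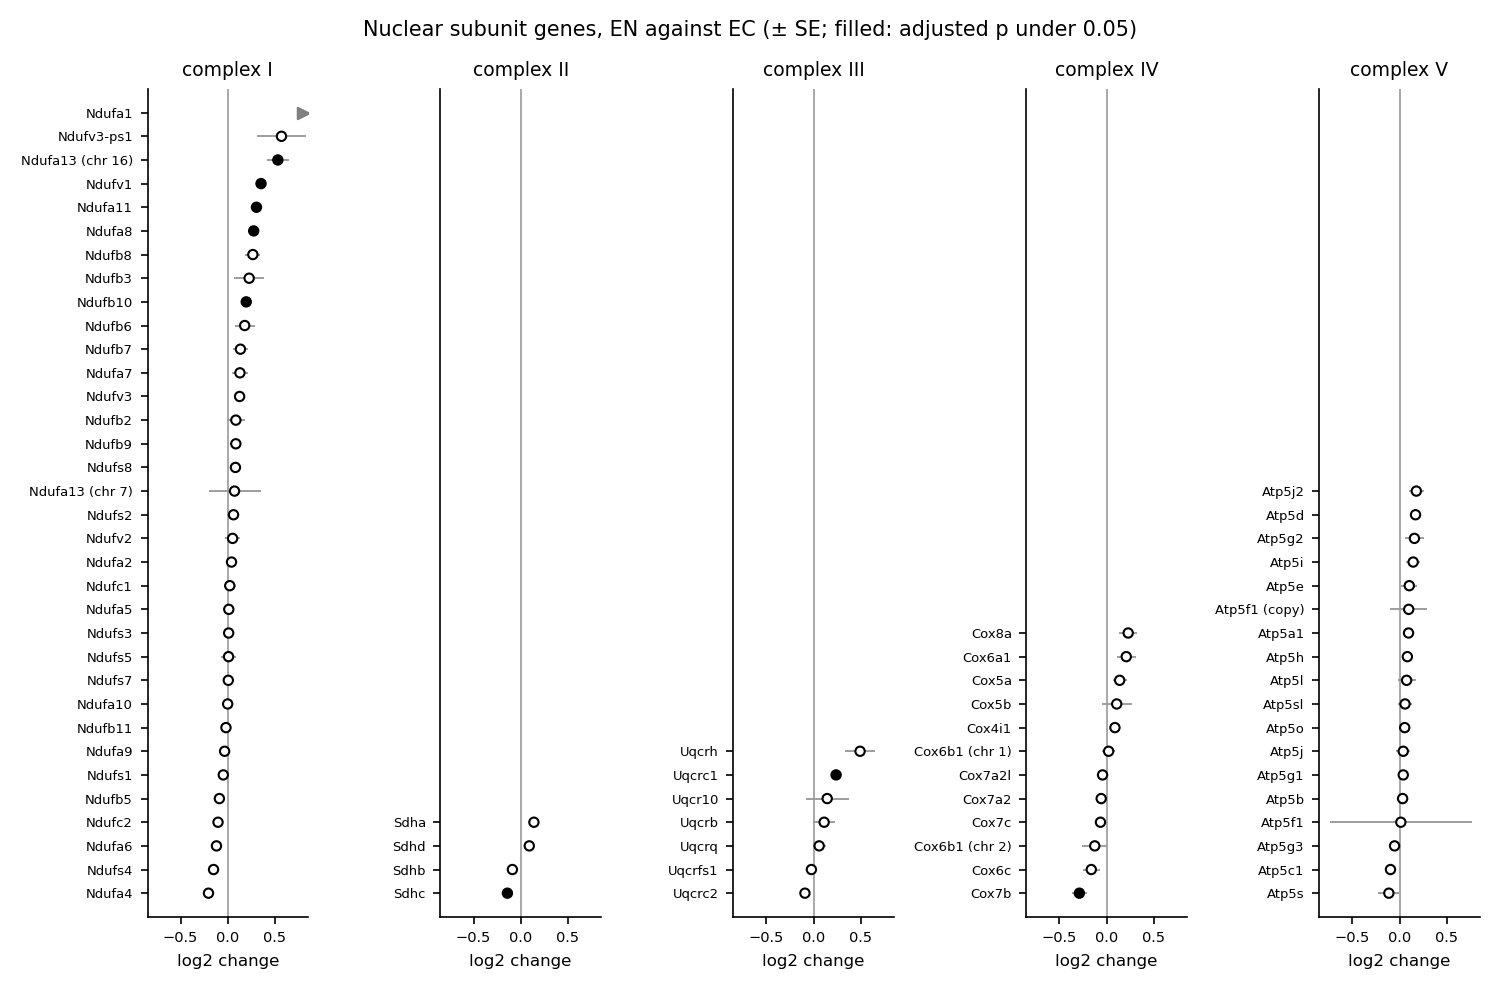
Log2 change of EN against EC ± SE for the 75 tested nuclear models, sorted within each complex; filled points passed an adjusted p of 0.05. The triangle marks Ndufa1, at 1.94 beyond the axis, where only EN replicate 1 was high, and the filled points are 5 in complex I, 1 each in complexes II, III and IV, and none in complex V.

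Complex I, the NADH dehydrogenase, held 5 of the 6 increases, and also 34 of the 75 tested nuclear models. Ndufv1 (chromosome 1, 219254279 to 219259448 of Rnor_6.0) encodes the flavin-bearing core subunit at which NADH is oxidised. It was at 42.0, 36.9 and 38.6 FPKM in EC and 51.3, 48.4 and 51.0 in EN. All EN libraries were above all EC libraries, at 1.28 times EC (log2 change 0.35, SE 0.0556, limma adjusted p = 0.0131). The other 6 nuclear core subunits did not pass, with log2 changes from -0.05 for Ndufs1, which carries iron-sulfur clusters, to 0.08 for Ndufs8.

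The remaining increases in complex I were in supernumerary subunits, which surround the catalytic core. Ndufa13 (chromosome 16, 21275311 to 21282246), a membrane-arm subunit also known as GRIM-19, was at 74.6, 68.7 and 59.6 FPKM in EC and 109.6, 101 and 84.3 in EN (log2 change 0.53, SE 0.114, limma adjusted p = 0.0278). A further model of the same symbol on chromosome 7 averaged 1.05 FPKM and was not called. Ndufa11 (chromosome 9, 10334090 to 10338216), a subunit of the membrane arm, was at 114, 108 and 98.6 FPKM in EC and 138, 133 and 126 in EN (log2 change 0.30, SE 0.0623, limma adjusted p = 0.0251). In both genes the groups did not overlap, and replicate 3 was the lowest library of its group.

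Ndufa8 and Ndufb10 encode subunits on the intermembrane-space side, held by disulfide bonds. Ndufa8 (chromosome 3, 15362824 to 15379381) was at 39.7, 36.3 and 34.6 FPKM in EC and 45.7, 45.9 and 42.8 in EN (log2 change 0.28, SE 0.0591, limma adjusted p = 0.0278). Ndufb10 (chromosome 10, 14090128 to 14092289) was at 42.6, 39.3 and 37.7 in EC and 45.5, 47.0 and 44.7 in EN (log2 change 0.20, SE 0.0523, limma adjusted p = 0.0499). For each, the lowest EN library was above the highest EC library. Of the 20 alternative fits given at the end, 14 called Ndufa8 and 9 called Ndufb10.

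Other complex I genes were separated without passing. Ndufb8, a membrane-arm subunit, was at 86.5, 76.2 and 70.7 FPKM in EC and 93.8, 98.6 and 88.1 in EN (log2 change 0.27, limma adjusted p = 0.0647). Ndufs4, a subunit of the matrix arm, was at 49.5, 46.5 and 44.4 in EC and 40.3, 43.6 and 42.2 in EN (log2 change -0.15, limma adjusted p = 0.0986). Ndufa4 was at 108, 115 and 117 in EC and 104, 101 and 91.4 in EN, the most negative log2 change of the tested Nduf models at -0.20 (limma adjusted p = 0.0562). It was counted with complex I by its symbol, although its product is now placed in complex IV. Thus separated genes of complex I pointed both ways.

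Complex II, succinate dehydrogenase, links the citric acid cycle to the chain and has 4 subunits. Sdhc (chromosome 13, 89498048 to 89518939), a membrane anchor, was at 152, 152 and 145 FPKM in EC and 135, 135 and 137 in EN, and fell by 0.14 on the log2 scale (SE 0.0344, limma adjusted p = 0.0398). Sdha, the flavoprotein that oxidises succinate, was at 63.0, 59.2 and 59.7 in EC and 66.7, 67.1 and 66.8 in EN (log2 change 0.14, SE 0.0375, limma adjusted p = 0.0502). Both sets were separated, in opposite directions, and Sdha missed the threshold. Sdhb, the iron-sulfur subunit, had a log2 change of -0.09 (limma adjusted p = 0.169), with every EN library below every EC library. Sdhd, the other anchor, had a log2 change of 0.09 (limma adjusted p = 0.298) with overlapping groups.

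Complex III passes electrons from ubiquinol to cytochrome c. Uqcrc1 (chromosome 8, 117679278 to 117691071), a core subunit facing the matrix, was at 152, 151 and 143 FPKM in EC and 174, 168 and 184 in EN (log2 change 0.24, SE 0.0456, limma adjusted p = 0.0213). Its partner core subunit Uqcrc2 was at 96.4, 95.0 and 101 in EC and 87.3, 92.0 and 94.9 in EN (log2 change -0.09, limma adjusted p = 0.202). The hinge protein gene Uqcrh was at 111, 74.8 and 70.6 in EC and 116, 122 and 116 in EN (log2 change 0.49, SE 0.158, limma adjusted p = 0.0799). In Uqcrh, EC replicate 1 lay close to the EN libraries and far from the other EC libraries. The summed nuclear complex III transcripts were 559.8, 523 and 504 FPKM in EC and 587, 585 and 589 in EN, without overlap. Uqcrc1, the highest of these genes, and Uqcrh are part of that sum. They averaged 149 and 85.5 FPKM in EC and 175 and 118 in EN, while Uqcrc2 and Uqcrfs1 had negative log2 changes. In the nuclear sums of complexes I, II, IV and V the groups overlapped.

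In complex IV, Cox7b (chromosome X, 77065397 to 77071676), a small structural subunit, was the one nuclear gene called. It was at 138, 151 and 161 FPKM in EC and 126, 131 and 112 in EN, and fell by 0.29 on the log2 scale (SE 0.0769, limma adjusted p = 0.0497). All EN libraries were below all EC libraries. Cox7b was called in 8 of the 20 alternative fits given at the end. It was not called on the TPM scale, or with median centring, quantile normalization, the replicate block or scaling to reads outside MT genes. The largest positive value was that of Cox8a, 0.23 on the log2 scale (limma adjusted p = 0.157), and its groups overlapped. Cox5b, a zinc-binding subunit, ranged from 209 to 234 FPKM in EC and from 189.7 to 309 in EN, so its EN libraries reached both below and above EC.

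None of the 18 ATP synthase models was called. Atp5b, the catalytic beta subunit and the highest nuclear member, was at 769, 766 and 726 FPKM in EC and 781, 783 and 749 in EN (log2 change 0.03, SE 0.0397). Atp5a1, the alpha subunit, averaged 449 FPKM (log2 change 0.10, limma adjusted p = 0.229). Atp5d, a central-stalk subunit, was separated at 69.7, 68.6 and 65.2 FPKM in EC and 80.7, 76.6 and 72.1 in EN, but did not pass (log2 change 0.17, limma adjusted p = 0.0699). The genes for the c-ring protein, Atp5g1, Atp5g2 and Atp5g3, averaged 136, 261 and 234 FPKM and were not called.

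All 10 calls depended on single libraries. None was kept when EC replicate 2, EC replicate 3 or EN replicate 1 was left out, and only Ndufv1 was kept without EN replicate 2 (limma adjusted p = 0.0459). Without EC replicate 1, 9 were kept, and without EN replicate 3, 8. The highest adjusted p of each called gene over these 6 fits lay between 0.0574 for Ndufv1 and 0.158 for Ndufb10, and no log2 change turned sign. Calls over all genes dropped likewise, from 883 higher and 871 lower to between 143 and 182 higher and between 180 and 269 lower in the 4 fits without EC replicate 2 or 3 or EN replicate 1 or 2.

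MT-encoded calls moved most with EN replicate 3. Without it, 11 of 13 MT genes fell (limma), with a median of -0.40, and 12 nuclear models rose and 1 fell. No MT gene was called in the 4 fits that lacked replicate 2 or 3 of EC, or replicate 1 or 2 of EN, and the medians there lay between -0.27 and -0.19. Without EC replicate 1, 3 MT genes were called.

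Paired tissue isoforms showed the same partner in all libraries. Cox4i1, a regulatory subunit of complex IV, averaged 289 FPKM while its lung and hypoxia isoform Cox4i2 averaged 0.168. Cox6a1 averaged 306 FPKM against 0.227 for the heart and muscle isoform Cox6a2. Cox8a averaged 156 FPKM against 0.0597 for Cox8b and 0.0335 for Cox8c, Cox6b1 averaged 147 against 0.0203 for the testis isoform Cox6b2, and Cox7b averaged 136 against 0.0397 for Cox7b2. Ndufa4 averaged 106 FPKM and Ndufa4l2, a hypoxia-induced relative, 0.116. The low isoforms fell under the 1 FPKM minimum and were not tested, as were Ndufb4l1 and Cox6c1, which were at 0 in all libraries. Cox7a2 and Cox7a2l were both present, at 129 and 73.1 FPKM, and neither was called.

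**Figure D4:**
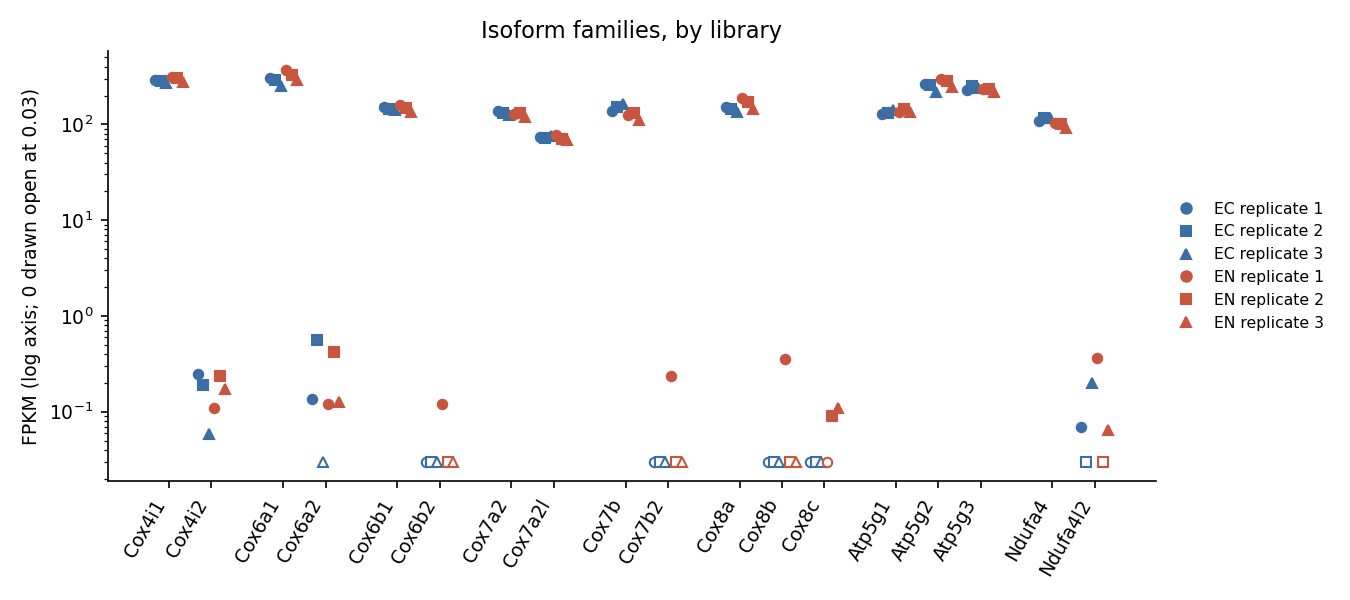
FPKM (log axis) of isoform families in each library; open symbols at 0.03 stand for 0. In each family with a low partner, all 6 libraries place the same isoform far above it, while the Atp5g genes and Cox7a2 with Cox7a2l lie close together.

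A few models switched on and off between libraries of one group. Ndufa1, a small membrane-arm subunit, was at 0.305, 0 and 0.291 FPKM in EC and 59.0, 0.236 and 0.283 in EN, which is 220 reads in EN replicate 1 and at most 1 read elsewhere. It passed the filter only through that library, and its log2 change of 1.94 (SE 1.41, limma adjusted p = 0.379) did not pass. Atp5f1, the b subunit of the peripheral stalk, has 2 models on chromosome 2: the first was at 17.6, 0.481 and 20.5 FPKM in EC and 14.5, 19.7 and 0.907 in EN, and the other averaged 1.501. The first had 15 reads in EC replicate 2 and 31 in EN replicate 3 against 522 to 809 in the rest. The levels of these models, of both Cox6b1 models and of Cox7a2, which has a processed pseudogene at 26.8 FPKM, are uncertain where copies share reads.

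**Figure D5:**
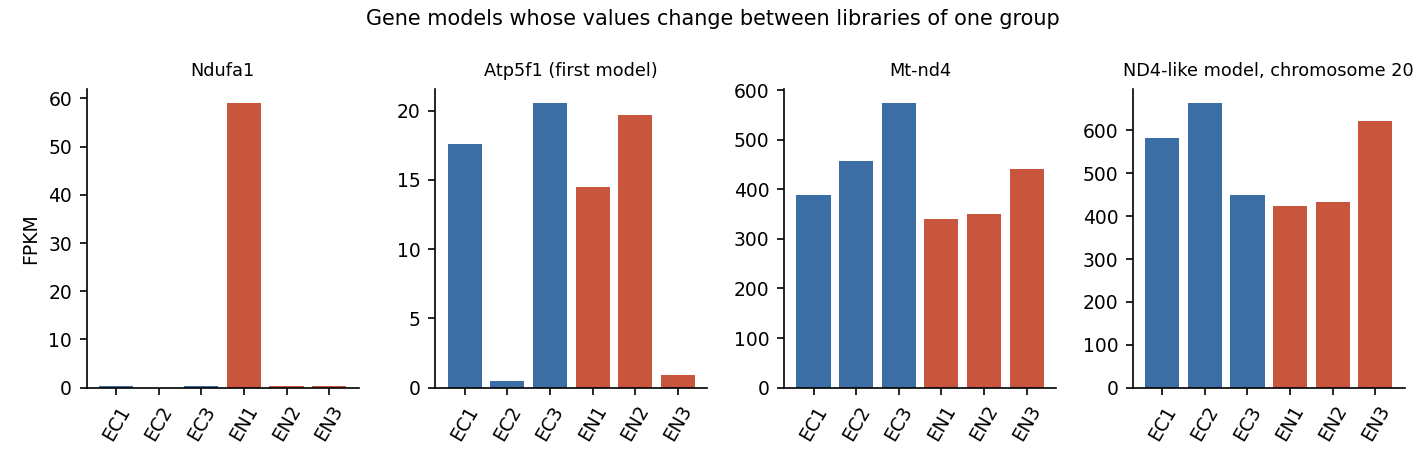
FPKM per library of Ndufa1, the first Atp5f1 model, Mt-nd4 and the unnamed chromosome 20 model like it (bars from 0, EC blue, EN red). Ndufa1 is high only in EN replicate 1, and Atp5f1 is near 0 in EC replicate 2 and EN replicate 3.

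The start regions of 6 called nuclear genes are shown so that genes with and without the letters recognised by known activators of respiratory genes can be compared. RefSeq promoters of the GRCr8 build, 300 bases each with 250 before and 50 after the gene start, matched 70 of the 81 nuclear symbols, 15 of them through a newer symbol. Capitals mark TGCGCA (the core of the NRF1 site), CCGGAAG (GABPA, an ETS factor), AAGATGGC (YY1) or AAGGTCA (ESRRA), on either strand. The regions are Ndufv1 at chr1:210734842-210735141 (minus strand), Ndufa11 at chr9:1637364-1637663 (plus strand), Ndufa13 at chr16:19560276-19560575 (plus), Uqcrc1 at chr8:118467973-118468272 (plus), Sdhc at chr13:86097976-86098275 (minus) and Cox7b at chrX:75148786-75149085 (plus). The first 4 genes rose and the last 2 fell in EN.
Ndufv1: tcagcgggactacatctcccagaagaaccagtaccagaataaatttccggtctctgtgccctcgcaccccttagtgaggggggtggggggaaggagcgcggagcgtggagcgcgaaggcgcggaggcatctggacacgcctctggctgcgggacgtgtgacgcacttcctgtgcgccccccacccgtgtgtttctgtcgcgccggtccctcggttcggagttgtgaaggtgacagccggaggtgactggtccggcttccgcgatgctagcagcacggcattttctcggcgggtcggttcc
Ndufa11: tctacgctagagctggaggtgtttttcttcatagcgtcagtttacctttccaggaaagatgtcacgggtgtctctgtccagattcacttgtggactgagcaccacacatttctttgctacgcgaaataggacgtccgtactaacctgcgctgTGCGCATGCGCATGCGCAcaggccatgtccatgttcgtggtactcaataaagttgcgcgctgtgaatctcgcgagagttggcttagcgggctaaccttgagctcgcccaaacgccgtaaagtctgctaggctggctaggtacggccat
Ndufa13: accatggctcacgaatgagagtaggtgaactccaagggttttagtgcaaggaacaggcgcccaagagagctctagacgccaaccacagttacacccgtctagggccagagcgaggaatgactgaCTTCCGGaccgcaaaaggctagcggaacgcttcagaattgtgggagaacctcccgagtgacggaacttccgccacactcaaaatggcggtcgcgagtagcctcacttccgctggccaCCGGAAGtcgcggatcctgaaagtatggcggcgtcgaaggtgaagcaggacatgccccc
Uqcrc1: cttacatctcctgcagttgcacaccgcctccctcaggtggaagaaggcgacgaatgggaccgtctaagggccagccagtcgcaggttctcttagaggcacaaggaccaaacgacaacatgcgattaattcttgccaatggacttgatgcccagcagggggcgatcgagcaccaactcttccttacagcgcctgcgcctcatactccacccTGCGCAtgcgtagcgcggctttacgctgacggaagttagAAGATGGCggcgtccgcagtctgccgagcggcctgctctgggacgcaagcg
Sdhc: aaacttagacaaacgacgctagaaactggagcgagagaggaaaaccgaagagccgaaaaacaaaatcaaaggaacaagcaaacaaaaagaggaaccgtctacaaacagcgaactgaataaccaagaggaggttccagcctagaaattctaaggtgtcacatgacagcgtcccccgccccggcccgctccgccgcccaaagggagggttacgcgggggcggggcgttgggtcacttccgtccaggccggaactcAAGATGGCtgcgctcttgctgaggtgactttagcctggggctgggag
Cox7b: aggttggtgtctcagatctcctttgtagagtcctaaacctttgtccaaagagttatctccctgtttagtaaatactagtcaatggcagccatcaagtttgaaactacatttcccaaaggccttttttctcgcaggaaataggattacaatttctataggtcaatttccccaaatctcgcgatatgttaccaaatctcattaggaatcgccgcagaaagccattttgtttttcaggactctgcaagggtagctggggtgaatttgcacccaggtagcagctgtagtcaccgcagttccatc

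Ndufa11 holds TGCGCA 3 times in a row, starting at -98, -92 and -86 from the gene start, in copies that abut. Ndufa13 has CCGGAAG at -9 and, on the other strand, at -126. Uqcrc1 has TGCGCA at -40 and AAGATGGC at -1, and Sdhc has AAGATGGC at 4. Ndufv1, the gene with the smallest adjusted p among the members, and Cox7b have none of the 4 strings, and Ndufb10, not shown, has TGCGCA at -1. Of the 7 called nuclear genes with a promoter, 5 held at least 1 of the strings, as did 43 of the 70 members. A match is a description of letters in this window and no evidence that a factor binds there.

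Over the members, TGCGCA stood in 27.1% of promoters against 7.24% of all 33469, and CCGGAAG in 28.6% against 8.75%. AAGATGGC stood in 20% against 3.17%, and AAGGTCA in 12.9% against 4.61%. These 4 were chosen out of 14 strings after the shares were seen, and no test was made. Start regions of housekeeping genes are rich in C and G, and base composition was not matched.

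Of the 4 regulators that recognise these letters, 1 rose, 1 fell and 2 did not pass. Esrra, a nuclear receptor that activates respiratory genes, was at 33.1, 30.5 and 31.4 FPKM in EC and 46.4, 42.8 and 42.8 in EN, and rose (log2 change 0.46, SE 0.0508, limma adjusted p = 0.00524). Unlike the subunits, it was called in all 6 fits that left out a library. Gabpa was at 22.9, 24.2 and 24.2 in EC and 21.1, 21.0 and 20.8 in EN, and fell by 0.17 on the log2 scale (limma adjusted p = 0.0396). Its gene overlaps Atp5j on the other strand by 7393 bases, and the labels do not tell whether counting used the strand. Gabpa was called in 1 of the 6 fits. A link between these regulators and the subunit calls was not tested.

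Nrf1 (log2 change 0.11, limma adjusted p = 0.343) was not called. Yy1 was at 52.8, 50.5 and 50.8 FPKM in EC and 54.3, 52.6 and 55.6 in EN with overlapping groups, and was not called (log2 change 0.07, limma adjusted p = 0.234). Tfam, which packages and transcribes mitochondrial DNA, had a log2 change of 0.00 with overlapping groups. Ppargc1a, the coactivator of mitochondrial biogenesis, was at most 0.0484 FPKM in any library and was not tested. In the list of 12 biogenesis regulators, 10 were tested, 1 rose, 1 fell and the median log2 change was 0.04. With 10 tested, each call is 10% of the list, beside 7.24% higher and 7.14% lower over all genes.

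Among electron carriers and subunits outside the name rule, 5 rose and 4 fell of 17 tested, with a median log2 change of 0.05. That is 29.4% higher and 23.5% lower, beside 7.24% and 7.14% of all genes. This list, like the others, was chosen with earlier results of these data known. Cyc1, the cytochrome c1 of complex III, was at 88.1, 84 and 80.1 FPKM in EC and 107, 98.1 and 97.2 in EN (log2 change 0.26, limma adjusted p = 0.0260). Usmg5, a small ATP synthase subunit, was at 345, 319.9 and 355 in EC and 280.2, 285 and 267 in EN, and fell by 0.29 (limma adjusted p = 0.0169). Coq10b, which binds coenzyme Q, fell by 0.39 (limma adjusted p = 0.0103) and was called in all 6 leave-one-out fits. No difference from the subunits' share was tested.

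Electron transfer flavoprotein, which feeds the chain from fatty acid oxidation, was split: Etfb rose (log2 change 0.34, limma adjusted p = 0.0278), while Etfa and Etfdh fell by 0.21 and 0.27 (limma adjusted p = 0.0306 and 0.0252). Coq2 and Coq7, enzymes of coenzyme Q synthesis, and Dhodh, which passes electrons from pyrimidine synthesis to ubiquinone, rose by 0.32, 0.48 and 0.33 on the log2 scale (limma adjusted p = 0.0268, 0.0265 and 0.0343). Both models of cytochrome c, Cycs, did not pass. The calls in this list thus ran in both directions.

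The assembly factors, which build the complexes, gave 2 higher and 2 lower of 44 tested (median 0.00). Uqcc2, needed for complex III assembly, rose by 0.64 and Higd2a by 0.35 (limma adjusted p = 0.0350 and 0.0458), and the complex IV factors Cox16 and Cox20 fell by 0.19 and 0.33 (limma adjusted p = 0.0407 and 0.0413). Of 34 tested genes for mitochondrial DNA copying, transcription and RNA handling, 2 rose and 2 fell (median -0.02). Polg, the DNA polymerase of mitochondria, rose by 0.29 (limma adjusted p = 0.0132), and Pnpt1, an RNA-degrading enzyme, fell by 0.23 (limma adjusted p = 0.0219). These shares were below or near the 14.4% of all genes called.

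Around the chain, the pyruvate dehydrogenase and citric acid cycle list had 1 higher and 2 lower of 19 tested (median -0.05), or 5.26% and 10.5% beside 7.24% and 7.14% of all genes. Pdk3, a kinase that inhibits pyruvate dehydrogenase, was at 55.8, 52.0 and 52.1 FPKM in EC and 41.5, 41.4 and 44.5 in EN, and fell by 0.32 (limma adjusted p = 0.0108). In the list of carriers, import and inner membrane structure, 3 of 22 rose and none fell (median 0.06), or 13.6% higher beside 7.24% of all genes. The ADP/ATP carriers Slc25a4 and Slc25a5, which export the ATP made by complex V, rose by 0.35 and 0.18 (limma adjusted p = 0.0380 and 0.0166), and the prohibitin Phb2 rose by 0.23 (limma adjusted p = 0.0383). For Slc25a5 the libraries stood at 239, 236 and 232 FPKM in EC and 265, 268 and 268 in EN, without overlap.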

How the data were processed

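Trizol RNA went into TruSeq libraries, per the labels' protocols. The authors deposited 1 table of FPKM values with gene models, symbols, coordinates, lengths and biotypes; the tool was HISAT2 2.0.5 and the genome build Rnor_6.0, per the submitters' processing notes. How reads were counted, and on which annotation release and strand, is not given in the sources used here. Deposited FPKM times gene length gave whole multiples of 1 step in 100% of values (within 0.001), so whole reads and depth could be worked back. The library size implied by that step was not exactly the sum of reads. It was 1.00, 0.987 and 0.997 times that sum in EC and 1.02, 1.01 and 0.995 times in EN. The reason was not tested.

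limma 3.58.1 in R 4.3.3 was fitted to log2(FPKM + 1) with a variance trend and group as its single term, as a two-sided test, over 12198 genes that averaged 1 FPKM or more. The fit was tested on simulated data. Members and gene lists were chosen with earlier results of these data known. Of 209 list entries, 190 matched by symbol, 7 by another symbol and 12 did not match. Named genes are all MT-encoded members, called nuclear members, the highest and most changed of each complex, isoform families, complex I core and Sdh genes, stated regulators, and up to 3 called genes with the smallest adjusted p of each other list; others were chosen after their values were seen.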

Additional observations from a re-analysis of the deposited data

How the results depend on the processing

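Counts of calls moved with the method, while the medians over all MT and over all nuclear members kept their sign in all fits run. The median of complex II (0.00) ranged from -0.03 to 0.03 and that of complex IV (-0.01) from -0.07 to 0.06. The nuclear models called (8: 6 higher, 2 lower) became 21 (17 and 4) with array weights, 2 (2 and 0) with no filter on low values, 1 (1 and 0) without a variance trend, and 12 higher and 0 lower with the replicate block. Lower calls were 1 on the TPM scale, with median centring, with quantile normalization and with scaling to reads outside MT genes. MT-encoded calls (2) became 12 with array weights, 6 with voom on whole reads, 5 with the replicate block, 1 with quantile normalization, and 0 with no filter or no variance trend. With single libraries left out, nuclear calls ranged from 0 to 13 (higher 0 to 12, lower 0 to 1) and MT calls from 0 to 11. The share of FPKM held by MT-encoded protein genes differed by -2.25 percentage points, EN minus EC, and the share of whole reads by -0.987. Under quantile normalization 9 of 13 MT genes were negative, 3 were 0 (Mt-nd2 among them) and Mt-co1 was positive at 0.06. That scaling sets a gene with the same set of ranks in both groups to 0 whatever its level. In the other fits all 13 were negative. Of 1379 comparisons of 69 named genes over 20 alternatives, 1162 stayed on their side of the threshold, 160 lost the call, 57 gained it and 0 reversed a call; 23 values of genes not called in either fit took the opposite sign and 3 became 0. The deviations of same-numbered EC and EN libraries had correlations of 0.088, -0.095 and -0.020, and not every library correlated best with its own number. The labels do not tell whether same-numbered libraries were handled together, and these correlations cannot settle it. The cause of these moves was not tested, and the planned edgeR fit was not run. The 9 nuclear models under 1 FPKM were not tested.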

Other observations

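Several models of respiratory subunits lie outside the name rule because they carry a locus symbol. The Ndufs6 model LOC679739 was at 26.2, 17.3 and 0.680 FPKM in EC and 0.536, 0.393 and 1.80 in EN (limma adjusted p = 0.146), high in 2 EC libraries and near 0 in the third. LOC686442, similar to a complex III subunit, was at 60.02, 50.3 and 51.7 in EC and 86.8, 73.9 and 52.9 in EN (limma adjusted p = 0.185). LOC688963, similar to Ndufb4, had a log2 change of -0.05, and LOC685596, similar to the ubiquinol-cytochrome c reductase binding protein, one of 0.02. None of these was called.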
